A study of Mus musculus with 24 samples.

Results

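The 38 genes described here encode the transporters and enzymes of glycolysis, the proteins that steer pyruvate and lactate, and genes that respond to low oxygen through the hypoxia-inducible factors (HIF). They were chosen by gene symbol, and each of the 38 symbols was found once among the 126602 features counted, of which 46603 were annotated genes and 79999 were transcripts assembled by the authors. All 38 reached the minimum of a mean of 10 normalised counts and were tested.

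Mouse retinal organoids (MROs) were grown from the wildtype mouse embryonic stem cell line E14Tg2a by the trisection protocol, in which each young aggregate is divided by hand and the pieces grow on as separate organoids. Total RNA was sequenced after removal of ribosomal RNA from single organoids, 6 each on D20, D22, D25 and D30 of differentiation. All were labelled as controls that received only the solvent water. Oxygen had been raised above that of air from early in culture, and the synthetic retinoid EC23 had been given for a few days before D20, so that all 4 timepoints share both. The 24 organoids come from 1 independent experiment, and the p-values therefore measure the spread between organoids of that experiment. Reads counted on features ranged from 13634846 to 19477108 per organoid. D30 organoid 6 stood apart from its timepoint on the first 2 principal components of log2 CPM over all features tested, at 99.83 and -50.19, beside 134.8 to 143.4 and 1.679 to 72.98 in the other 5. The sum of 10 rod photoreceptor markers was 3342 ± 680.3 normalised CPM (counts of each library scaled to a common total with TMM factors, mean and SD, n = 6) at D20 and 15270 ± 3549 at D30, and all 10 were counted in these libraries labelled as retina.

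Glycolysis splits glucose into pyruvate, and lactate dehydrogenase can then turn pyruvate into lactate, which leaves the cell through monocarboxylate transporters. The retina is known for making much lactate even with oxygen present, a habit ascribed largely to photoreceptors. In the HIF pathway, oxygen-dependent prolyl hydroxylases mark the HIF alpha subunits for destruction, and when oxygen is scarce the stable subunits pair with ARNT and bind short DNA motifs near genes for glucose transport, glycolysis, blood vessel growth and mitochondrial turnover. HIF activity is set largely at the protein level, and the counts reported here measure RNA only.

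Between D20 and D30, genes of the set changed in both directions. By the edgeR quasi-likelihood test with Benjamini-Hochberg adjustment over all features tested (threshold 0.01), 11 of 38 genes (28.9%) were higher at D30, beside 25.1% of the 16253 annotated genes tested and 28.5% of the 10854 annotated genes with a mean of at least 100 normalised counts. In the other direction, 12 of 38 (31.6%) were lower, beside 16.7% of annotated genes and 19.6% of the well counted ones. The higher count was thus close to its background, while the lower count was above it, a difference that was not tested. The median log2 fold change was -0.21 over the 38 genes and 0.10 over annotated genes. When any difference among the 4 timepoints was tested at once, 28 of 38 genes passed, beside 43.9% of annotated genes. No share over well counted genes was taken for that test. Scaled and fitted on annotated genes only, the split between D30 and D20 was 10 higher and 15 lower, beside 23.2% and 21.8% of annotated genes, and the median over annotated genes was 0.01. Without D30 organoid 6 the split was 10 higher and 12 lower, beside 26.6% and 15.1% of annotated genes.

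The 11 genes that rose were the hexokinase Hk1, the bifunctional enzyme Pfkfb2, the phosphofructokinase Pfkm, the aldolase Aldoc, the enolases Eno1 and Eno2, Gapdh, the lactate transporter Slc16a1, the HIF alpha subunits Epas1 and Hif1a, and Ndrg1. The 12 that fell were the glucose transporters Slc2a1 and Slc2a3, the phosphofructokinase Pfkp, the enzymes Gpi1, Tpi1 and Pgk1, the kinase Pdk1, the lactate exporter Slc16a3 and the HIF targets Bnip3, Bnip3l, Vegfa and P4ha1. In bulk organoids, fewer cells of a type and less RNA per cell cannot be told apart.

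**Figure D1:**
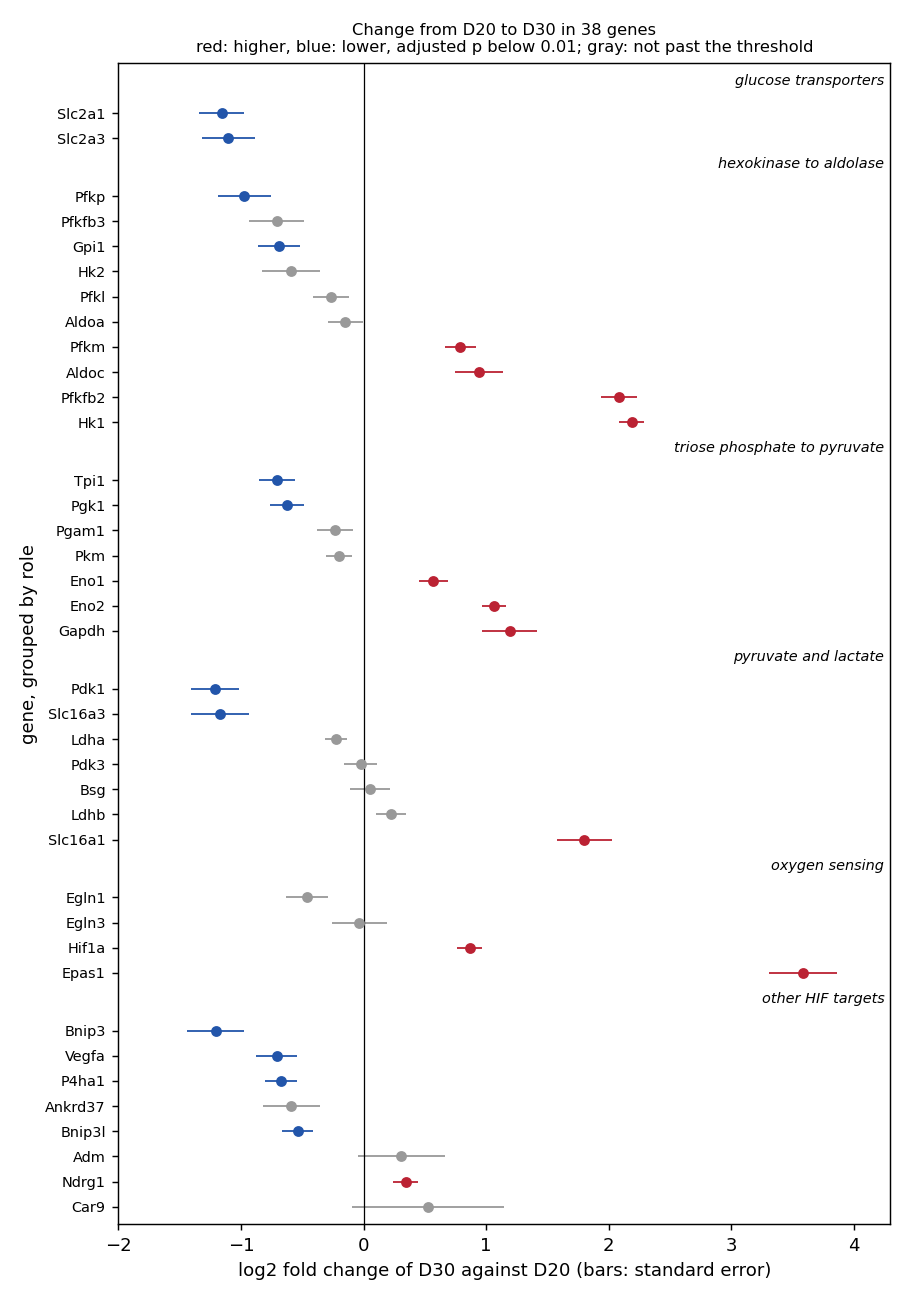
Log2 fold change of D30 against D20 (horizontal axis, bars are standard errors) for each of the 38 genes, grouped by role; red marks genes higher and blue genes lower at an adjusted p below 0.01. The values run from -1.21 for Pdk1 to 3.58 for Epas1.

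Since HIF dimers bind the core motifs ACGTG and GCGTG, the 250 bases before a transcription start listed in the RefSeq promoter table of GRCm38.p6 were searched for both motifs on both strands (CACGT and CACGC as read on the printed strand). A table entry was found for 33 of the 38 genes, and none for Bsg, Slc2a3, Ndrg1, Epas1 and Bnip3l. Either motif was present in 27 of the 33 (81.8%), beside 38.6% of all 32851 promoters of the same length, where ACGTG was in 16.6%, GCGTG in 28.2% and the E-box CACGTG, which contains ACGTG on both strands, in 6.02%. Among genes higher at D30, 7 of 9 promoters held a match, as did 7 of 10 among those lower and 13 of 14 among the others. A match is a description of these letters and not a binding site. The promoters of the 3 risen and the 3 fallen genes with the largest change and an entry follow, because these genes span the pattern, in lower case with matches in capitals. They lie at chr10:62379909-62380158 (minus strand) for Hk1, chr1:130714577-130714826 (minus) for Pfkfb2, chr3:104638414-104638663 (plus) for Slc16a1, chr2:71872974-71873223 (plus) for Pdk1, chr7:138909507-138909756 (minus) for Bnip3 and chr11:120948817-120949066 (plus) for Slc16a3.
Hk1: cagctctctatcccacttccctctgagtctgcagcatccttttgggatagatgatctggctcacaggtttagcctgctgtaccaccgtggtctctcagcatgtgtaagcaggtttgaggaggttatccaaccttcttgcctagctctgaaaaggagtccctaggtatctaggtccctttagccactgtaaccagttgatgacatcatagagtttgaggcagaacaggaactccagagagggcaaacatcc
Pfkfb2: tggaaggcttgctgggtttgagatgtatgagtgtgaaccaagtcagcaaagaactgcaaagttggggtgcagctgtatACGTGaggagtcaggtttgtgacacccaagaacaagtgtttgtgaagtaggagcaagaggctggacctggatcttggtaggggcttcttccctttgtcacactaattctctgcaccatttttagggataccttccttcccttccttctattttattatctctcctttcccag
Slc16a1: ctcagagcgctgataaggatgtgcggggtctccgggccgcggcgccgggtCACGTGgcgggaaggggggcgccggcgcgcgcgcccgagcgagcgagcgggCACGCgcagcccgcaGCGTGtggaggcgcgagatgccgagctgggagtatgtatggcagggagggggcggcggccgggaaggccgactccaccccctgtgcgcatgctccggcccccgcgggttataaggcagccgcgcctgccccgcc
Pdk1: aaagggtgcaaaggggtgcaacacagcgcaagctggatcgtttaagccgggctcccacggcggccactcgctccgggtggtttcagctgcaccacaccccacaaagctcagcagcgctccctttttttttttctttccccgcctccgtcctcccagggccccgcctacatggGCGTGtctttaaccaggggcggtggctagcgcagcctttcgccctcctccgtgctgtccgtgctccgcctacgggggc
Bnip3: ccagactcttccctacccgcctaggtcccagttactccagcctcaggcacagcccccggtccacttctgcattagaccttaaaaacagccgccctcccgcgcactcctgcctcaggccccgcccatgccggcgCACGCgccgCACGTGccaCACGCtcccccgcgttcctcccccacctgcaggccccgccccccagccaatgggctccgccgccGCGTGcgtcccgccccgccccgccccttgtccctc
Slc16a3: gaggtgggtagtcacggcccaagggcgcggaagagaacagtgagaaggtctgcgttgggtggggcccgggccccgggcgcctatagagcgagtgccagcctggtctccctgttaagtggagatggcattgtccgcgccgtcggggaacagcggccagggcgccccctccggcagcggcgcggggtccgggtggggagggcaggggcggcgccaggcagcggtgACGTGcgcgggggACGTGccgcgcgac

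The Hk1 window held no match, while the table's other Hk1 start had 3 matches of GCGTG. For Pfkfb2 the printed window held 1 match, and the other starts in the table had 4 and 1. The other start of Pdk1 had 0. Of the 11 genes with several starts, 5 had a match at every start and 6 at some of them, so that 30 of the 33 genes had a match at any start and 24 at every start. The starts need not be the outermost base of a gene: 10 of the 33 windows, those of Pfkfb2 and Slc16a3 among them, lay wholly within the annotated span of their own gene and 9, that of Bnip3 among them, in part. The CACGTG runs in the Slc16a1 and Bnip3 windows are counted as matches of ACGTG on each strand. Where a gene had several starts, the one nearest most annotated transcript starts was taken, a choice made after the entries had been seen.

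Both glucose transporters of the set were lower at D30. Slc2a1 (GLUT1, chr4:119108711-119137983, coordinates on GRCm38 from GENCODE M21 throughout) is the transporter through which most cells take up glucose. Over the 6 organoids of a timepoint its normalised CPM ran from 392 (median 482) to 616 at D20, from 315 (median 408) to 596 at D22, from 240.3 (median 300.3) to 479.8 at D25 and from 148 (median 191) to 331 at D30. Every D30 organoid lay below every D20 organoid, whereas neighbouring timepoints overlapped. The edgeR test gave a log2 fold change -1.16, SE 0.18, adjusted p = 7.44e-06 for D30 against D20. Slc2a3 (GLUT3, chr6:122727809-122801640), a high-affinity carrier typical of neurons, ran from 153 (median 167) to 189 at D20, from 85.9 (median 145) to 243 at D22, from 62.9 (median 89.4) to 134 at D25 and from 48.0 (median 79.8) to 112 at D30 in normalised CPM. Here too D20 and D30 did not overlap, and the D22 organoids spread over the widest range. By edgeR, Slc2a3 had a log2 fold change -1.10, SE 0.22, adjusted p = 0.000156.

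Of the 10 genes from hexokinase to aldolase, 4 rose and 2 fell between D20 and D30. Hk1 (chr10:62268855-62379908) encodes the hexokinase typical of adult brain and retina, which traps glucose as glucose 6-phosphate. In normalised CPM its organoids ran from 123 (median 136) to 156 at D20, from 177 (median 194) to 209.8 at D22, from 265 (median 319.9) to 382 at D25 and from 483 (median 662) to 723 at D30. The 4 timepoints did not overlap at any step. The edgeR log2 fold change 2.19, SE 0.10, adjusted p = 6.97e-16 made it the gene of this role with the largest increase. Pfkfb2 (chr1:130689182-130729253), which makes and removes the sugar bisphosphate that activates phosphofructokinase, was counted far less, running from 11.8 (median 14.8) to 16.6 at D20, from 15.0 (median 20.3) to 32.6 at D22, from 34.1 (median 38.5) to 41.3 at D25 and from 50.1 (median 59.6) to 73.3 at D30 in normalised CPM. Only D20 and D22 overlapped (edgeR log2 fold change 2.08, SE 0.14, adjusted p = 8.9e-13 for D30 against D20). Of its exon length, 17.4% is shared with an overlapping gene on the same strand, so part of its reads may be set aside.

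Pfkp (chr13:6579768-6648777), the platelet-type phosphofructokinase, catalyses the committed step. Its normalised CPM went from 879.6 (median 954) to 1201 at D20, from 595 (median 836) to 1307 at D22, from 373 (median 567) to 886 at D25 and from 256 (median 471) to 718 at D30. All D30 organoids were below all D20 organoids, with wide overlap in between (edgeR log2 fold change -0.97, SE 0.21, adjusted p = 0.000546). Aldoc (chr11:78322968-78327781), the aldolase of brain and glia, ran from 54.6 (median 59.0) to 63.6 at D20, from 48.5 (median 68.6) to 87.3 at D22, from 62.0 (median 70.2) to 88.1 at D25 and from 39.1 (median 129) to 156 at D30 in normalised CPM. At D30 organoid 6 lay below every D20 organoid while the other 5 lay above them, so the groups overlapped (edgeR log2 fold change 0.94, SE 0.20, adjusted p = 0.000278). The other genes of this role were named after their values were seen: Pfkm rose (log2 fold change 0.79, SE 0.13, adjusted p = 8.9e-06, edgeR) and Gpi1 fell (log2 fold change -0.69, SE 0.17, adjusted p = 0.00203, edgeR). Other annotated genes overlap 10.2% of the exon length of Pfkm and 11.5% of that of Gpi1. Hk2, Pfkl, Pfkfb3 and Aldoa did not pass, with log2 fold changes from -0.71 to -0.15, and Pfkfb3 was close to the threshold (adjusted p = 0.0125 by edgeR). Pfkfb3 passed as lower with the replicate block (adjusted p = 0.00397), with annotated genes only (adjusted p = 0.00341), with no filter on low counts (adjusted p = 0.00689) and without D30 organoid 2 or 4 (0.00341 to 0.0406 over all alternatives).

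Of 7 genes from triose phosphate to pyruvate, 3 rose and 2 fell. Eno2 (chr6:124760053-124769673), the enolase of neurons, had normalised CPM from 73.9 (median 76.1) to 79.2 at D20, from 88.4 (median 101) to 119.8 at D22, from 125 (median 136) to 161 at D25 and from 122 (median 169) to 188 at D30. D20, D22 and D25 were separate from each other, and D25 and D30 overlapped (edgeR log2 fold change 1.07, SE 0.10, adjusted p = 3.88e-10 for D30 against D20). Tpi1 (chr6:124810586-124814296), which interconverts the triose phosphates, ranged from 354 (median 395) to 459 at D20, from 284 (median 373) to 513 at D22, from 208 (median 274) to 359 at D25 and from 186 (median 233) to 331 at D30 in normalised CPM. Its D20 and D30 organoids did not overlap (edgeR log2 fold change -0.70, SE 0.14, adjusted p = 0.000242). Pgk1 (chrX:106187100-106203699), an ATP-forming kinase of the pathway and a classic HIF target, ranged from 457 (median 511) to 681 at D20, from 346 (median 414) to 610.2 at D22, from 238 (median 329) to 419.5 at D25 and from 286 (median 349) to 405 at D30 in normalised CPM. It too was separate between D20 and D30, and its levels at D25 and D30 overlapped (edgeR log2 fold change -0.63, SE 0.14, adjusted p = 0.000619).

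Gapdh (chr6:125161715-125166467) encodes the dehydrogenase that follows triose phosphate isomerase, and its level is uncertain. It received only 80 to 662 counts per organoid. Reads that align to several places were not counted, and the mouse genome holds many near-identical Gapdh copies. Its normalised CPM was spread from 5.59 (median 10.5) to 14.4 at D20, from 23.6 (median 31.0) to 40.6 at D22, from 15.1 (median 26.7) to 36.3 at D25 and from 18.4 (median 22.9) to 30.4 at D30, with D20 below every later timepoint (edgeR log2 fold change 1.19, SE 0.22, adjusted p = 7e-05). Alignments set aside as not unique ranged from 12828991 to 29554121 per library, and their part in this result was not tested. Several other genes of the set, among them Aldoa, Eno1, Ldha, Pgam1, Pgk1, Pkm and Tpi1, also have processed copies in the mouse genome, so their levels may be too low. The remaining 3 genes of the role were described after their values were seen: Eno1 rose (log2 fold change 0.57, SE 0.12, adjusted p = 0.000251, edgeR), whereas Pgam1 (-0.23) and Pkm (-0.20, both log2 fold changes) did not pass.

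Among the 7 genes of pyruvate and lactate, 1 rose and 2 fell between D20 and D30, and 1 more moved at single steps. Slc16a1 (chr3:104638668-104658462) encodes the monocarboxylate transporter MCT1, which moves lactate and pyruvate in either direction. The organoids ranged from 31.0 (median 35.5) to 53.1 at D20, from 17.8 (median 26.9) to 51.6 at D22, from 35.4 (median 43.5) to 66.3 at D25 and from 80.8 (median 126) to 215 at D30 in normalised CPM. The 6 organoids at D30 lay above all others of the time course (edgeR log2 fold change 1.80, SE 0.22, adjusted p = 1.31e-07 for D30 against D20). Slc16a3 (chr11:120948480-120960868), the lactate exporter MCT4 of strongly glycolytic cells, ran from 55.2 (median 63.5) to 91.3 at D20, from 48.4 (median 71.6) to 102 at D22, from 29.6 (median 53.8) to 65.4 at D25 and from 16.0 (median 24.3) to 55.0 at D30 in normalised CPM. D30 lay below D20 with 1 organoid just under the lowest of D20 (edgeR log2 fold change -1.17, SE 0.24, adjusted p = 0.000211).

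Pdk1 (chr2:71873224-71903858) encodes a kinase that inhibits pyruvate dehydrogenase. In normalised CPM, Pdk1 ranged from 199 (median 213) to 267 at D20 and from 143 (median 189) to 284 at D22. It then ran from 94.1 (median 111) to 146 at D25 and from 44.8 (median 94.9) to 139 at D30. D20 and D30 were separate, while 1 D25 organoid reached into the range of D22 (edgeR log2 fold change -1.21, SE 0.20, adjusted p = 1.06e-05 for D30 against D20). Ldha (chr7:46841475-46855627), the subunit of lactate dehydrogenase that favours lactate, was highest in the middle of the time course, running from 810.3 (median 884) to 978 at D20, from 1064 (median 1113) to 1301 at D22, from 877 (median 1063) to 1335 at D25 and from 623 (median 762) to 855 at D30 in normalised CPM. All D22 organoids exceeded all of D20, and all D30 organoids were below all of D25. By edgeR, Ldha rose from D20 to D22 (log2 fold change 0.38, SE 0.09, adjusted p = 0.0098) and fell from D25 to D30 (log2 fold change -0.49, SE 0.09, adjusted p = 0.000454), and D30 against D20 did not pass (adjusted p = 0.047). With annotated genes only, D30 against D20 passed (adjusted p = 0.00463, the alternatives running from 0.00463 to 0.216). The call from D20 to D22 was lost with the size factors of DESeq2 (adjusted p = 0.0155), by the DESeq2 Wald test (adjusted p = 0.0104) and with the filterByExpr filter (adjusted p = 0.0184). It was also lost in 19 of 24 fits that left out 1 organoid, all but those without D20 organoid 2, D25 organoid 5 or D30 organoid 2, 4 or 6 (0.00178 to 0.0485 over all alternatives). Ldhb, Pdk3 and the transporter chaperone Bsg had log2 fold changes from -0.02 to 0.22 between D20 and D30 and did not pass.

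Of the 4 oxygen-sensing genes, both alpha subunits rose and neither hydroxylase passed. Epas1 (chr17:86753700-86833410), which encodes a HIF alpha subunit best known from endothelium and glia, ranged from 2.41 (median 5.22) to 13.1 at D20, from 6.13 (median 6.93) to 13.3 at D22, from 13.6 (median 19.4) to 27.2 at D25 and from 50.6 (median 74.4) to 98.9 at D30 in normalised CPM. D25 and D30 were each separate from all other timepoints, and D20 and D22 overlapped. This was the largest change in the set (edgeR log2 fold change 3.58, SE 0.28, adjusted p = 1.14e-11), and the steps into D25 (1.32) and into D30 (1.89, both log2 fold changes) passed too. Hif1a (chr12:73901375-73947530), which encodes the alpha subunit found in nearly all cells, ran from 522 (median 617) to 674 at D20, from 626 (median 729) to 959 at D22, from 850.1 (median 987) to 1065 at D25 and from 876 (median 1101) to 1338 at D30 in normalised CPM. Its D20 and D30 organoids did not overlap (edgeR log2 fold change 0.87, SE 0.10, adjusted p = 5.08e-08). Egln1, the main prolyl hydroxylase, had a log2 fold change of -0.46 (adjusted p = 0.0337 by edgeR). It passed as lower with annotated genes only (adjusted p = 0.00937) and without D30 organoid 4 (0.00747 to 0.0996 over all alternatives). Egln3, itself a HIF target, had a log2 fold change of -0.03 (adjusted p = 0.923), whose sign depended on the scaling, as did the signs of Pdk3 and Bsg.

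Of the 8 other HIF targets, 4 fell and 1 rose between D20 and D30, and 3 did not pass. Bnip3 (chr7:138890836-138909519), a mitochondrial protein that marks mitochondria for removal, ranged from 269.7 (median 303) to 356 at D20, from 182 (median 298) to 463 at D22, from 105 (median 189) to 228 at D25 and from 67.5 (median 116) to 208 at D30 in normalised CPM. No D30 organoid reached the D20 range, though D22 was wide (edgeR log2 fold change -1.21, SE 0.23, adjusted p = 0.000111). Vegfa (chr17:46016993-46032369), the growth factor of blood vessels, ran from 566 (median 581) to 793 at D20, from 448 (median 615) to 863 at D22, from 319 (median 422) to 593 at D25 and from 248 (median 379) to 545 at D30 in normalised CPM. Its D30 range ended just under the D20 range (edgeR log2 fold change -0.71, SE 0.17, adjusted p = 0.000983). P4ha1 (chr10:59323296-59373304), a subunit of the collagen prolyl hydroxylase, ranged from 280.3 (median 312) to 409 at D20, from 209 (median 279.9) to 376 at D22, from 179 (median 222) to 274 at D25 and from 158 (median 198) to 246 at D30 in normalised CPM. Again D20 and D30 were separate (edgeR log2 fold change -0.68, SE 0.13, adjusted p = 0.000125). Bnip3l (chr14:66985239-67008877), a relative of Bnip3 with the same task, ran from 178 (median 198) to 208 at D20, from 162 (median 183) to 258 at D22, from 122 (median 170) to 187 at D25 and from 103 (median 128) to 175 at D30 in normalised CPM, and its D30 range ended just under that of D20 (edgeR log2 fold change -0.54, SE 0.13, adjusted p = 0.00117).

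The remaining 4 genes of this role were described after their values were seen. Ndrg1, a gene linked to differentiation and stress, was highest at D25, running from 284 (median 298) to 323 at D20, from 343 (median 410.3) to 540.5 at D22, from 474 (median 541) to 594 at D25 and from 279.6 (median 387) to 459 at D30 in normalised CPM, so that D30 and D20 overlapped. By edgeR it rose from D20 to D22 (log2 fold change 0.52, SE 0.10, adjusted p = 0.00266) and fell from D25 to D30 (log2 fold change -0.48, SE 0.10, adjusted p = 0.00279). Its net increase (log2 fold change 0.34, adjusted p = 0.00944 by edgeR) was lost with annotated genes only (adjusted p = 0.0567), with the compared timepoints only (adjusted p = 0.0171) and in 17 of 24 fits that left out 1 organoid, all but those without D22 organoid 2, 3 or 6, D25 organoid 1 or 5 or D30 organoid 1 or 2 (0.000799 to 0.0567 over all alternatives). Adm, the vessel-dilating peptide adrenomedullin, rose from D20 to D22 (log2 fold change 1.72, SE 0.36, adjusted p = 0.00373, edgeR) and stood at a log2 fold change of 0.31 at D30 against D20, which did not pass. Ankrd37 (-0.59) and Car9 (0.53, both log2 fold changes of D30 against D20) did not pass either. Car9, the carbonic anhydrase often used as a hypoxia marker, stayed low, with no organoid above 2.42 normalised CPM. Ankrd37 shares 22.7% of its exon length with a gene on the opposite strand, and the strand setting of the counting is not given in the sources used here.

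**Figure D2:**
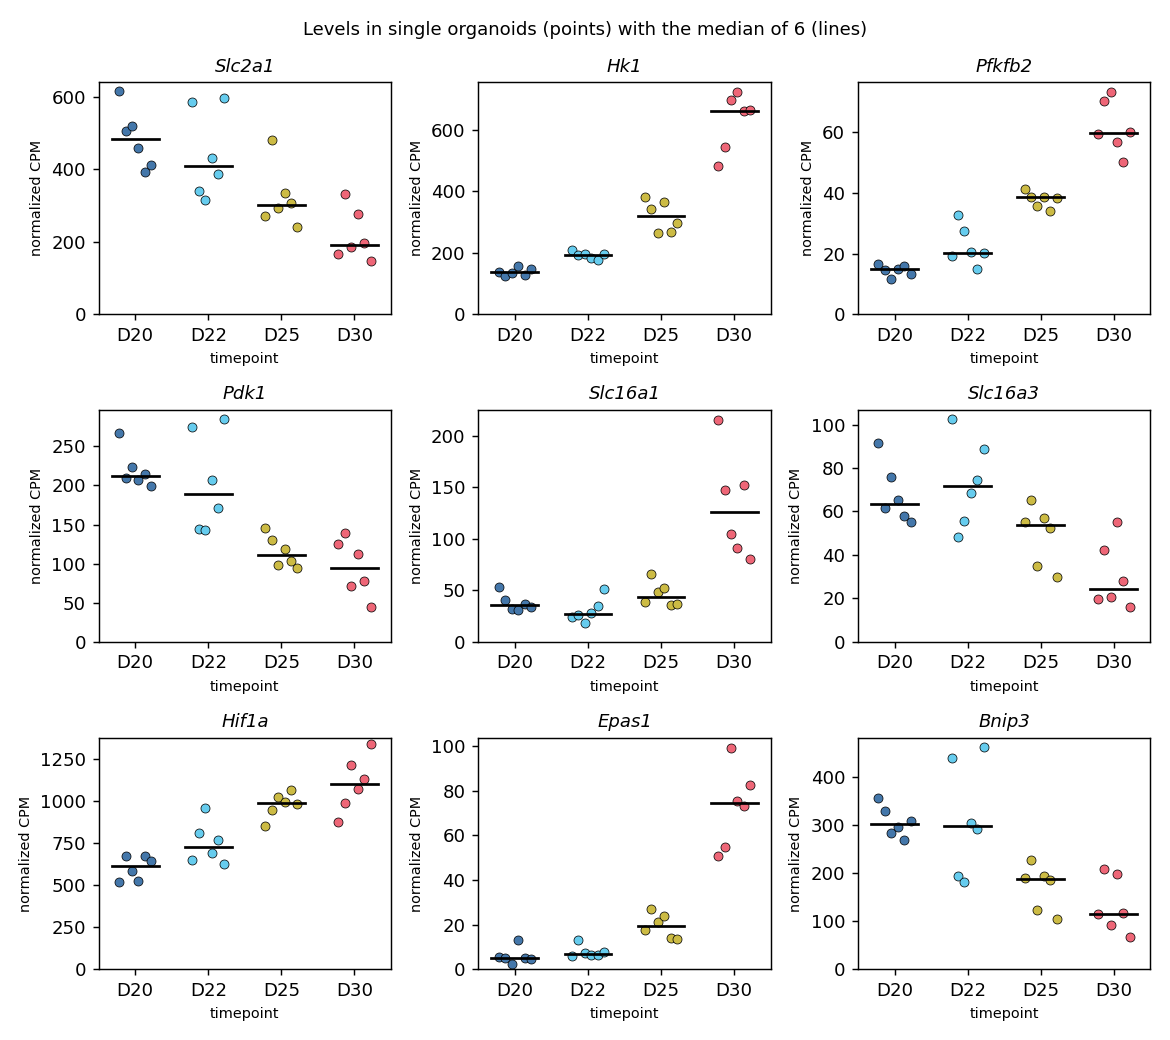
Normalised CPM of 9 genes in each of the 24 organoids (points, 6 per timepoint) with the median (line). Hk1, Slc16a1 and Epas1 are highest at D30, where every organoid lies above every D20 organoid, and Slc2a1, Pdk1, Slc16a3 and Bnip3 are lowest there.

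The consecutive steps share organoids with each other, so their values stand side by side only. Shares at the steps were taken over all annotated genes tested. These include genes counted less than most of the set, and no share over well counted genes was taken. From D20 to D22, 7 of 38 genes (18.4%) rose, beside 2.56% of annotated genes, and none fell, beside 0.763%. The share of annotated genes that fell was 2.09% by the DESeq2 Wald test and 1.86% with the compared timepoints only, and ran from 0.283% without D22 organoid 3 to 1.76% without D22 organoid 6. The share that rose was 1.29% without D22 organoid 3, 1.56% without D20 organoid 1 and at most 3.31% without 1 organoid. At an unadjusted p under 0.05, edgeR had 9 genes higher and 1 lower at this step, without a share of annotated genes at that threshold. The DESeq2 Wald test with its own adjustment called 0 lower. The 7 were Hk1, Pfkfb2, Gapdh, Eno2, Ldha, Adm and Ndrg1, and the median log2 fold change over the 38 was 0.03 beside -0.06 over annotated genes. Each of these calls other than that of Gapdh was lost in 1 or more of the 24 fits that left out 1 organoid, and the count ran from 2 to 7 over those fits. The call of Hk1 was lost without D20 organoid 2, 3 or 5 or D22 organoid 3 (edgeR adjusted p from 0.000928 to 0.012 over all alternatives), that of Adm without D20 organoid 1, 2 or 5 or D22 organoid 1 (0.000145 to 0.0145) and that of Ndrg1 without D22 organoid 3 (0.000644 to 0.0174). Pfkfb2 did not pass with the compared timepoints only (adjusted p = 0.0279), nor without D20 organoid 2, 3, 4 or 6, D22 organoid 2 or 3 or D25 organoid 6 (0.00139 to 0.0296 over all alternatives). Eno2 did not pass with the filterByExpr filter (adjusted p = 0.0111), with no filter on low counts (adjusted p = 0.0101), nor without any single D20 organoid, D22 organoid 2, 3 or 4 or D25 organoid 3, 4 or 6 (0.00253 to 0.033). At this step, 6 of 38 genes had timepoint ranges that did not overlap, a description given without a share over annotated genes.

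From D22 to D25, 4 of 38 genes (10.5%) rose, beside 7.33% of annotated genes, and 1 (2.63%) fell, beside 2.92%. At a threshold of 0.05 the split was 6 higher and 7 lower, beside 14.3% and 5.94% of annotated genes. At an unadjusted p under 0.05 by edgeR it was 8 higher and 18 lower, without a share of annotated genes to set beside it. Within the set, the balance of directions thus depended on the threshold. Among annotated genes, the share that rose was 4.55% without D22 organoid 1, and the share that fell was 1.75% without D22 organoid 6 and 1.82% and 1.86% without D25 organoids 4 and 6. Hk1 (log2 fold change 0.73), Pfkfb2 (0.75), Eno2 (0.45) and Epas1 (1.32) were the risen genes, and Pdk1 (-0.83) the fallen one. The median was -0.29 over the 38 genes and 0.10 over annotated genes. Scaled and fitted on annotated genes only, 3 genes rose and 5 fell, and the annotated genes went from 1191 higher and 474 lower to 1022 higher and 970 lower. With the size factors of DESeq2, 5 rose and 1 fell, beside 8.08% and 2.45% of annotated genes. Without 1 organoid, the number fallen was 4 without D22 organoid 2 or D30 organoid 6, 5 without D22 organoid 3, 6 without D25 organoid 2, 2 without D30 organoid 2, and 0 without D22 organoid 1, 4 or 6 or D25 organoid 3, 4, 5 or 6. Over the fits without 1 organoid, 1.75% to 3.44% of annotated genes fell. Hif1a (log2 fold change 0.38, adjusted p = 0.0129) was just short of the threshold and passed as higher in 6 of the 7 alternatives that changed the test, scaling, filter or design, with annotated genes only as the exception (adjusted p = 0.0701, all alternatives running from 0.00216 to 0.0701). Bnip3 (log2 fold change -0.87, adjusted p = 0.0127) passed as lower in 4 of these 7, with annotated genes only, no filter on low counts, the compared timepoints only and the replicate block (0.00338 to 0.0485 over all alternatives). Vegfa (log2 fold change -0.60, adjusted p = 0.016) passed as lower with annotated genes only (adjusted p = 0.0052) and with no filter on low counts (adjusted p = 0.00777), its alternatives running from 0.00458 to 0.0584, and Pgk1 (log2 fold change -0.48, adjusted p = 0.0219) with annotated genes only (adjusted p = 0.00642, alternatives from 0.00642 to 0.0823). The call of Eno2 was lost with annotated genes only (adjusted p = 0.0107, the alternatives running from 0.000286 to 0.0107), and that of Pdk1 without D22 organoid 1, 4 or 6 or D25 organoid 3, 4, 5 or 6 (0.000996 to 0.0215).

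From D25 to D30, 4 of 38 genes (10.5%) rose, beside 4.55% of annotated genes, and 2 (5.26%) fell, beside 2.83%. At an unadjusted p under 0.05 by edgeR, 9 were higher and 5 lower, again without a share of annotated genes at that threshold. By the DESeq2 Wald test, 6 rose, beside 7.17% of annotated genes. The risen genes were Hk1 (log2 fold change 0.97), Pfkfb2 (0.71), Slc16a1 (1.52) and Epas1 (1.89), and the fallen ones Ldha (-0.49) and Ndrg1 (-0.48). The median was -0.07 over the 38 genes and 0.05 over annotated genes. With annotated genes only, annotated genes went from 739 higher and 460 lower to 743 higher and 744 lower. Without D30 organoid 6, 7 rose and 2 fell, beside 6.08% and 2.52% of annotated genes. The added genes were Aldoc, Ldhb and Pfkm. Ldhb (log2 fold change 0.48, adjusted p = 0.0125) also passed as higher by the DESeq2 Wald test (adjusted p = 0.00203), with the size factors of DESeq2 (adjusted p = 0.00685) and with annotated genes only (adjusted p = 0.00686), its alternatives running from 0.00148 to 0.0398. Aldoc (log2 fold change 0.68, adjusted p = 0.0285) passed by the DESeq2 Wald test (adjusted p = 0.00565, the alternatives running from 8e-05 to 0.0853). The call of Ndrg1 was lost with the compared timepoints only (adjusted p = 0.0103) and without D30 organoid 1 or 2 (0.000484 to 0.0105 over all alternatives). Hk1 and Pfkfb2 thus rose at each of the 3 steps, the first of which depended on single organoids. Slc2a1 and Slc2a3 passed between D20 and D30 and at no step, although Slc2a3 passed from D22 to D25 with annotated genes only (adjusted p = 0.00672), with no filter on low counts (adjusted p = 0.00599) and without D22 organoid 2 or 3, D25 organoid 2 or D30 organoid 6 (0.00376 to 0.0665 over all alternatives).

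**Figure D3:**
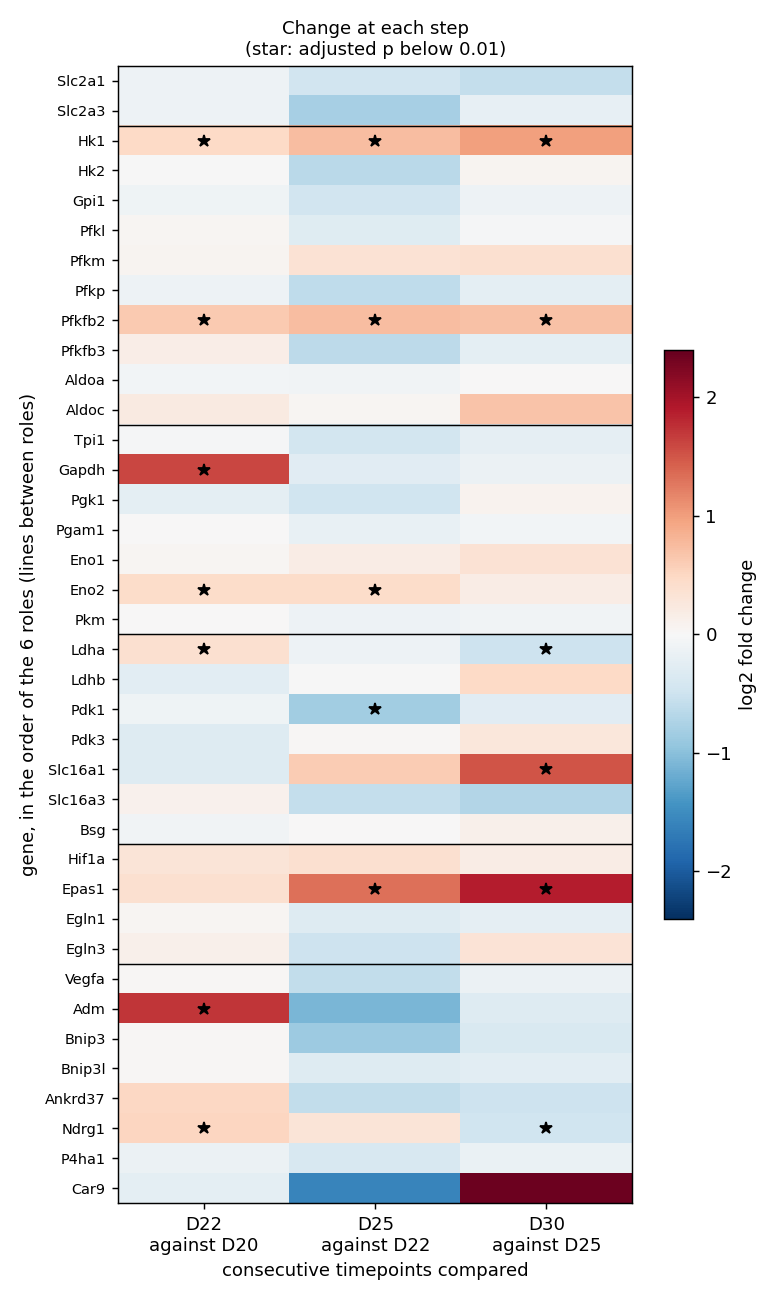
Log2 fold change at each of the 3 consecutive steps (columns) for the 38 genes (lines, ordered by role), on a color scale from blue (lower) to red (higher), with a star at an adjusted p below 0.01. Stars fall on 7 genes from D20 to D22, on 5 from D22 to D25 and on 6 from D25 to D30.

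Levels were compared between isozymes per kilobase of exon, as the share of 1 gene in the summed level of its isozymes or relatives among the 38 genes, others such as Eno3 being left out (mean and SD of 6 organoids, described without a test). Hk2, the inducible hexokinase, held 72.9% ± 4.38 of Hk1 plus Hk2 at D20, 64.3% ± 8.95 at D22, then 42.0% ± 6.40 at D25, and 28.3% ± 5.32 at D30. The pair thus passed from mostly Hk2 to mostly Hk1. Hk1 rose, and Hk2 had a mean of 266.5 normalised CPM at D20 and 177 at D30 (edgeR log2 fold change -0.59, SE 0.23, adjusted p = 0.0454, the alternatives running from 0.0161 to 0.134), lower but not past the threshold. Slc16a3 held 59.8% ± 4.18 of Slc16a1 plus Slc16a3 at D20 and 16.8% ± 8.97 at D30, a pair in which 1 gene fell and the other rose. Of Pfkl, Pfkm and Pfkp together, Pfkp went from 52.5% ± 1.10 to 32.7% ± 5.35 and the muscle-type Pfkm from 15.4% ± 1.43 to 33.6% ± 6.97, while the liver-type Pfkl stood at 32.1% ± 1.64 and 33.7% ± 4.23.

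Pdk3, a kinase of the same family as Pdk1, made up 30.4% ± 2.62 of the pair at D20 and 51.6% ± 8.70 at D30, as Pdk1 fell. Ldhb, the subunit that favours pyruvate, had a share of 15.2% ± 1.31 at D20, 10.4% ± 1.66 at D22, then 11.1% ± 1.44 at D25, and 19.7% ± 4.01 at D30. Epas1 remained the minor alpha subunit, at 1.08% ± 0.751 of Hif1a plus Epas1 at D20 and 6.43% ± 0.867 at D30. Eno2 had 17.1% ± 1.20 and 22.6% ± 2.62 of Eno1 plus Eno2 at D20 and D30, and Aldoc 6.23% ± 0.935 and 11.97% ± 4.27 of Aldoa plus Aldoc. Since Eno1, Aldoa and Ldha have processed copies and may be counted too low, the shares of Eno2, Aldoc and Ldhb may be too high. Shares of counts that ignore exon length differ, at D20 for example 5.30% for Pfkm, 12.6% for Pdk3 and 7.84% for Ldhb. By counts Pfkp held 72.6% at D20 and 56.2% at D30, where Pfkm had 14.7% and Pdk3 26.5%. On that measure Pfkp and Pdk1 stayed the most counted genes of their groups. The remaining pairs had shares at D20 and D30 of 14.7% ± 1.26 and 15.3% ± 2.69 for Slc2a3, 27.2% ± 1.76 and 38.8% ± 6.21 for Bnip3l beside Bnip3, and 20.8% ± 2.47 and 25.8% ± 4.38 for Egln3 beside Egln1.

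**Figure D4:**
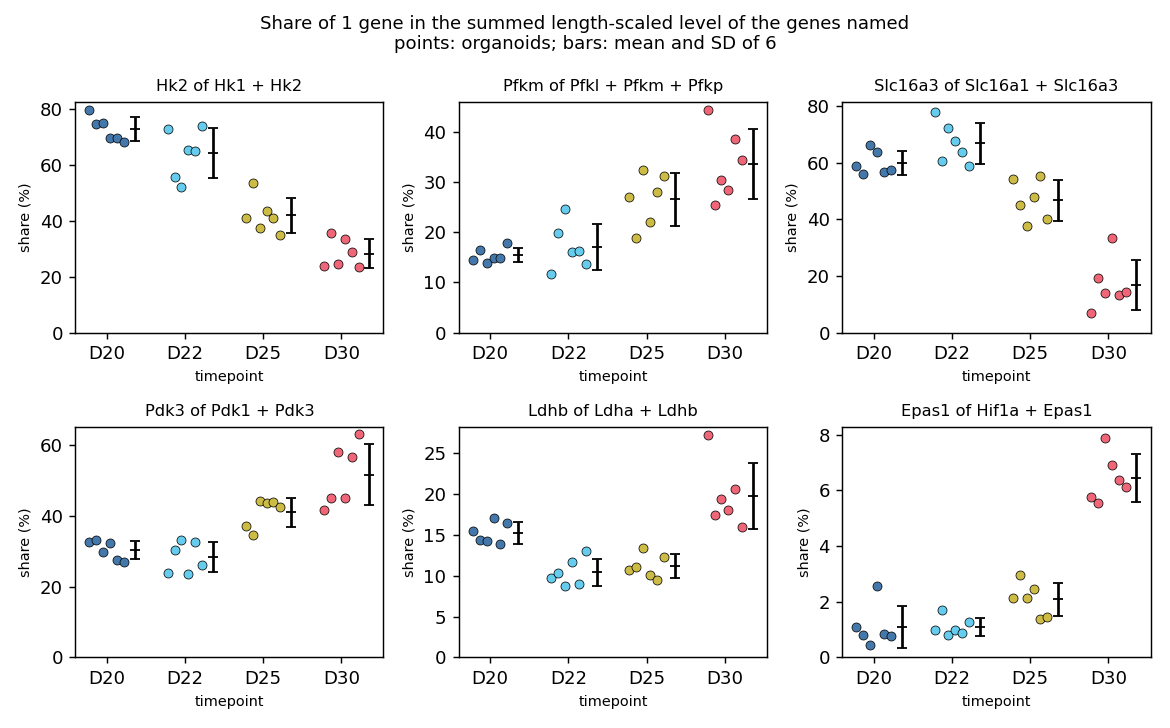
Share (percent) of 1 gene in the summed per-kilobase level of the genes named over each panel in each organoid (points), with mean and SD of 6 (bars). Hk2 and Slc16a3 go down from 72.9% and 59.8% at D20 to 28.3% and 16.8% at D30, and Ldhb is lowest at D22 and D25.

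On the per-kilobase scale, the genes with the highest mean level at D20 were Bsg at 295, Pkm at 285, Aldoa at 279, Ldha at 266 and Pgk1 at 238 normalised CPM per kilobase. At D30, Bsg (306), Aldoa (252), Pkm (248) and Ldha (228) were still the top 4, so the genes with the largest fold changes were not the most abundant ones. Pkm, Aldoa, Ldha and Pgk1 are among the genes with processed copies whose levels may be too low, and Gapdh is uncertain, so the order may be affected. The summed normalised CPM of all 38 genes was 11390 ± 1112 at D20, 11790 ± 2002 at D22, then 10410 ± 1528 at D25, and finally 10310 ± 1535 at D30 (mean and SD, n = 6), with overlapping ranges.

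Further genes of glycolysis and pyruvate use were followed as a list of 32, of which 24 were counted well enough to test. Between D20 and D30, 11 of the 24 rose and 2 fell, beside 25.1% and 16.7% of annotated genes, with a median log2 fold change of 0.39 beside 0.10 over annotated genes. Pdk4, a pyruvate dehydrogenase kinase induced by fasting, rose from almost no counts to a median of 2.41 normalised CPM (edgeR log2 fold change 3.79, SE 0.85, adjusted p = 0.000637), a fold that rests on few counts. Slc16a7, the high-affinity transporter typical of neurons, and Slc2a12, a further glucose transporter, rose with log2 fold changes of 2.67 (adjusted p = 3.3e-05) and 2.35 (adjusted p = 8.05e-05), both by edgeR. These 3 stayed at low levels, at a median of at most 16.4 normalised CPM at D30.

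Of a list of 38 further HIF pathway and target genes, 35 were tested. Between D20 and D30, 4 of the 35 rose and 13 fell, beside the same 25.1% and 16.7% of annotated genes, a difference that was not tested, and the median log2 fold change was -0.19. Hif3a, a HIF alpha relative that can act as an inhibitor, ran from 7.88 (median 11.1) to 15.5 at D20 and from 0.776 (median 1.47) to 2.85 at D30 in normalised CPM and fell by 2.88 on the log2 scale (adjusted p = 1.51e-08, edgeR). Stc2, a secreted glycoprotein (-1.60), and Plod2, a collagen lysyl hydroxylase (-1.56), fell as well, with edgeR adjusted p = 1.31e-05 and 2.49e-06. Plod1, a relative of Plod2, rose (edgeR log2 fold change 1.46, SE 0.15, adjusted p = 6.96e-09). Thus the same enzyme family held a fallen and a risen gene.

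Marker lists of cell types moved over the same interval, and their part in the results above was not tested. All 10 rod markers were tested and 9 rose between D20 and D30, with Pdc the most abundant. Their summed normalised CPM ranged from 2116 to 3829 over the 6 organoids at D20, from 4819 to 9978 at D22, from 11520 to 13530 at D25 and from 10070 to 19410 at D30. Of 8 proliferation markers all fell, led by Top2a in abundance, and their sum ranged from 843.6 to 1407 at D20 and from 330.6 to 543.8 at D30. Of 8 Mueller glia markers 6 rose and 1 fell, and their sum went from 1049 to 1302 at D20 and from 1595 to 4491 at D30, with Dkk3 the top gene at D20 and Apoe at D30. Of 6 bipolar cell markers 5 rose, with sums from 46.25 to 62.13 at D20 and from 226.1 to 362.7 at D30, mostly Prkca.

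Among 8 markers of amacrine, horizontal and ganglion neurons 1 rose and 3 fell, and the sum, led by Elavl3, ranged from 155 to 250.2 at D20 and from 123.9 to 262.9 at D30. Pigment epithelium markers (4 of 7 tested, 2 risen) summed to 10.44 to 49.71 at D20 and 35.16 to 2673 at D30, almost all of it Ttr. Endothelial markers (3 of 6 tested, 1 risen and 2 fallen) summed to 257.8 to 343.4 at D20 and 125.7 to 208.8 at D30, nearly all Kdr, which retinal progenitors also express. None of the 5 microglia and 5 erythroid markers reached 1 normalised CPM as the mean of any timepoint, and 3 erythroid genes had no count at all. Cortex-type neuron markers (0 of 6 past the threshold between D20 and D30 by edgeR, 1 at an unadjusted p under 0.05 and 0 by DESeq2, but 2 risen from D22 to D25 by either tool) summed to 10.28 to 219.7 at D20, 6.552 to 22.3 at D22, then 6.763 to 347.2 at D25, and 6.042 to 230.7 at D30. Neurod6, which amacrine cells also express, was their most abundant gene other than at D22. For the oligodendrocyte lineage 3 of 5 tested genes rose and 1 fell (sums 69.19 to 84.23 at D20 and 54.21 to 268 at D30, led by Olig2 and Pdgfra), and for cartilage, muscle or mesenchyme 1 of 5 rose and 2 fell (56.19 to 87.4 and 24 to 52.81, led by Col2a1).

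**Figure D5:**
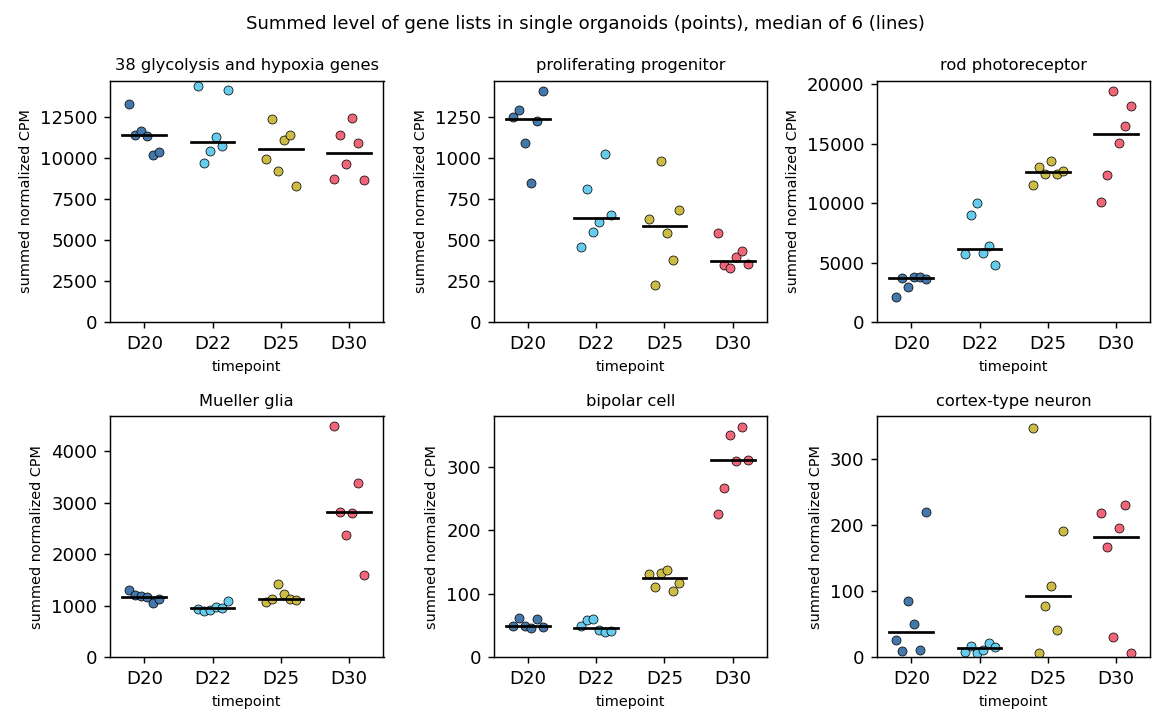
Summed normalised CPM of the 38 genes and of 5 marker lists in each organoid (points) with the median of 6 (lines). The sum of the 38 genes overlaps between all timepoints, while the rod sum is 2116 to 3829 at D20 and 10070 to 19410 at D30 and the proliferation sum does not overlap between D20 and D30.

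Within a timepoint the genes tended to be high or low in the same organoids, a count made after the plots had been seen, and one in which genes of the same library are not independent. At D20, organoid 1 was the highest of 6 in 26 of 38 genes. At D22, organoids 6 and 1 were among the highest 2 in 33 and 29 genes. At D25, organoid 2 was the highest in 25, and organoid 6 the lowest in 22. At D30, organoid 4 was the highest in 21 and organoid 6 the lowest in 23. The spread between organoids of the same age was thus shared by many genes of the set, though no such count was made over annotated genes. D30 organoid 6 had a TMM factor of 1.06, beside 0.906 to 0.978 in the other D30 organoids, which lowers its normalised CPM beside theirs. The part of this factor in the ranks was not tested. At D30, organoid 6 had the highest sum of the oxygen-sensing genes, 1527 normalised CPM, of which Hif1a made up 1338. Egln1 was lowest in that organoid, at 85.9, while Egln3 (20.6) and Epas1 (82.6) lay within their D30 ranges.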

How the data were processed

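Single MROs of 4 ages were sequenced as strand-specific, ribosomal RNA-depleted libraries. The authors trimmed reads (cutadapt 1.5), aligned them to GRCm38/mm10 (HISAT2), assembled new transcripts (StringTie 1.3.3) and deposited raw counts per known gene or new transcript (HTSeq 0.6.1), with tools as in the submitters' processing notes. The strand setting of the counting is not given in the sources used here. Counting summary lines were left out of library sizes and tests. Reads on no feature ran from 37.5% to 48.9% of the uniquely aligned reads, with means per timepoint of 45.3%, 46.3%, 43.3% and 40.7% in order of age, and 83.2% to 87.1% of counted reads fell on annotated genes.

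Counts of all 24 organoids were fitted with edgeR 4.0.16 (R 4.3.3, TMM factors, 1 term per timepoint, quasi-likelihood test) over 46949 features averaging at least 10 normalised counts, 16253 of them annotated, and adjusted by Benjamini-Hochberg over all of them, with a threshold of 0.01. The common biological coefficient of variation was 0.3846. No library was a copy of another of its timepoint (smallest chi-square per degree of freedom 5.997). Normalised CPM uses the TMM library sizes, and 3 counts equal 0.162 to 0.213 normalised CPM. Alternatives were DESeq2 1.42.0 and its size factors, other filters, annotated genes only, a replicate block, the compared timepoints only, a threshold of 0.05 and leaving out each organoid. The calculation was tested on simulated data.

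The members and lists were chosen with earlier results of these data known. Full values go, in each of 6 roles, to up to 4 genes past 0.01 in D30 against D20 or in a step, ordered by the absolute log2 fold change of D30 against D20, and in each further list to the 4 genes past 0.01 with the largest change, of which 1 is not reported here. Promoters were those of the 3 risen and 3 fallen members with the largest change and an entry. The use of the 250 bases before the start, the choice among several starts and the ranks of organoids were set after the data had been seen.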

Additional observations from a re-analysis of the deposited data

Results flagged for a closer look

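In 5 of 152 groups of 6 organoids (38 genes at 4 timepoints), the highest organoid stood apart from the rest by more than the critical value of Dixon's ratio. Chance alone gives about 1 in 20 groups with an organoid standing apart on either side, a rate that 5 of 152 does not exceed. At D20, organoid 1 was high for 3 genes: Pdk1 at D20 in organoid 1 (267 normalised CPM, the other 5 from 199 to 224), Egln1 at D20 in organoid 1 (246 normalised CPM, the other 5 from 168 to 186) and P4ha1 at D20 in organoid 1 (409 normalised CPM, the other 5 from 280.3 to 318). The other cases were Epas1 at D20 in organoid 4 (13.1 normalised CPM, the other 5 from 2.41 to 5.45) and Epas1 at D22 in organoid 2 (13.3 normalised CPM, the other 5 from 6.13 to 7.58).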

How the results depend on the processing

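For D30 against D20, the count of 23 genes past the threshold lay between 22 and 25 over the other fits at 0.01, 22 and 24 being the ends without 1 organoid, and was 28 at a threshold of 0.05. With the replicate block the counts were 7, 7, 6 and 24 for the 3 steps and D30 against D20, and 27 for any difference among timepoints. Deviations of same-numbered organoids had a mean correlation of 0.013 over 36 pairs (-0.083 to 0.214), against -0.003 over 180 pairs with different numbers. On these mean correlations alone, the numbers of the labels did not pair the organoids. An organoid of the same number was the best match of 8 of 24 organoids. This is a larger share than the same-numbered pairs make up of all pairs, a difference that was not tested. The block moved none of these totals by over 1.5 times, but with it 2 genes fell from D22 to D25 in place of 1, Bnip3 being added (adjusted p = 0.00905).

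Counts at the steps moved more, and the cause was not tested. Genes of the set past the threshold from D20 to D22 (7) ran from 2 to 7 without 1 organoid: 3 without D20 organoid 2, 3 or 5, 4 without D20 organoid 1, 4 or 6, D22 organoid 2 or D25 organoid 6, and 2 without D22 organoid 3. From D22 to D25 (5), there were 13 at adjusted p below 0.05, 9 with no filter on low counts, 8 with annotated genes only, and 4 to 10 without 1 organoid, with 8 and 10 without D22 organoids 2 and 3, 10 without D25 organoid 2 and 9 without D30 organoid 6. Annotated genes past the threshold from D20 to D22 (540) were 1327 at 0.05, 899 by the DESeq2 Wald test and 256 to 824 without 1 organoid (300 without D20 organoid 1, 341, 256 and 824 without D22 organoids 2, 3 and 6). Those lower at this step (124) were 340 by the DESeq2 Wald test, 303 with the compared timepoints only, 47, 69 and 75 without D20 organoids 1, 2 and 3, and 61, 46, 70 and 286 without D22 organoids 2, 3, 4 and 6. From D22 to D25 (1665) they were 3287 at 0.05 and 1064 to 1955 without 1 organoid (1064 without D22 organoid 1), and from D25 to D30 (1199) 2142 at 0.05.

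All 152 fold changes of the set (38 genes, 4 comparisons) were recomputed. Of 4712 values, 103 had the other sign. None of these was past the threshold in either fit, the smallest adjusted p among them in the fit reported being 0.767 and the largest absolute log2 fold change 0.23. The log2 fold changes with the other sign were, with the size factors of DESeq2, Pgam1 (D22 against D20) -0.0013, Pkm (D22 against D20) -0.0009, Ldhb (D25 against D22) 0.02, Pfkl (D30 against D25) 0.03, Egln3 (D30 against D20) 0.03, Pdk3 (D30 against D20) 0.04; by the DESeq2 Wald test, Pgam1 (D22 against D20) -0.0007, Pkm (D22 against D20) -0.0002, Ldhb (D25 against D22) 0.01, Pfkl (D30 against D25) 0.03, Egln3 (D30 against D20) 0.03, Pdk3 (D30 against D20) 0.04; with annotated genes only, Hk2 (D22 against D20) 0.04, Tpi1 (D22 against D20) 0.02, Aldoc (D25 against D22) -0.05, Bsg (D25 against D22) -0.08, Pdk3 (D25 against D22) -0.07, Aldoa (D30 against D25) -0.04, Bsg (D30 against D20) -0.04; with filterByExpr, Pgam1 (D22 against D20) -0.0018, Pkm (D22 against D20) -0.0015, Ldhb (D25 against D22) 0.02; with no filter on low counts, Ldhb (D25 against D22) 0.01, Aldoa (D30 against D25) -0.0028; and with the replicate block, Bsg (D25 against D22) -0.01. Between D20 and D30, the fits without 1 organoid lost a call 17 times, each time that of Ndrg1, and gained one 3 times, for Egln1 without D30 organoid 4 and Pfkfb3 without D30 organoid 2 or 4. Calls gained at a step without 1 organoid were, from D22 to D25, Bnip3 (D22 organoid 2 or 3, D25 organoid 2, D30 organoid 2 or 6), Vegfa (D22 organoid 2 or 3, D25 organoid 2, D30 organoid 6), Hif1a (D22 organoid 3, D30 organoid 1 or 6), Pgk1 (D22 organoid 3, D25 organoid 2) and Adm (D25 organoid 2), besides Slc2a3. From D25 to D30 they were Aldoc and Pfkm (D30 organoid 6), Ldhb (D22 organoid 6, D25 organoid 3, D30 organoid 6), Eno1 (D25 organoid 5) and Slc16a3 (D30 organoid 4). DESeq2 gave no adjusted p for Car9 in D30 against D25.

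Without 1 organoid, the log2 fold changes that took either sign ranged, for D22 against D20, as follows: Bnip3 -0.12 to 0.13, Bnip3l -0.06 to 0.08, Car9 -0.71 to 0.07, Egln1 -0.04 to 0.14, Hk2 -0.17 to 0.12, Pfkl -0.02 to 0.13, Pfkm -0.03 to 0.10, Pgam1 -0.05 to 0.08, Pkm -0.05 to 0.07, Slc16a3 -0.01 to 0.21, Slc2a3 -0.28 to 0.01, Tpi1 -0.13 to 0.04, Vegfa -0.07 to 0.12. For D25 against D22 they were Aldoa -0.16 to 0.01, Aldoc -0.04 to 0.12, Bsg -0.14 to 0.11, Ldhb -0.09 to 0.07, Pdk3 -0.03 to 0.11. For D30 against D25 they were Aldoa -0.08 to 0.09, Gapdh -0.23 to 0.0022, Hk2 -0.07 to 0.26, Pfkl -0.14 to 0.09, Pgam1 -0.15 to 0.03, and for D30 against D20 Bsg -0.04 to 0.11, Egln3 -0.16 to 0.10, Pdk3 -0.09 to 0.07.

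Dropping exon length moved 37 of the isozyme shares by more than 1 SD, and no share moved that far without 1 organoid. Depth limits Car9 and Pdk4, which had few counts, and Gapdh has near-identical copies whose shared reads were not counted.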

Other observations

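Marker sums of the organoids that were highest or lowest in many of the 38 genes differed by list and timepoint. For rods, in normalised CPM, organoid 1 at D20 had the lowest sum, 2116 beside 2961 to 3829 in the other 5, and organoids 6 and 1 at D22 had the 2 lowest, 4819 and 5731, beside 5840 to 9978. At D25, however, organoid 2 (highest in 25 genes) had the second highest rod sum, 13080, and organoid 6 (lowest in 22) had 12740, in a range from 11520 to 13530. At D30, organoid 4 (highest in 21) had 15080 and organoid 6 (lowest in 23) had 18170, in a range from 10070 to 19410.

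For proliferation markers, organoid 2 at D25 had the lowest sum, 226.8 beside 375.1 to 981.4 normalised CPM, and organoid 1 at D22 the lowest of its timepoint, 454.3, while D20 organoid 1 (1250), D22 organoid 6 (652.7), D25 organoid 6 (679.8) and D30 organoids 4 and 6 (394.2 and 352.2) lay within their ranges. For Mueller glia, the sums of D20 organoid 1 (1302) and D22 organoid 6 (1089) were the highest and that of D30 organoid 6 (1595) the lowest of their timepoints, while D22 organoid 1 (943.3), D25 organoids 2 and 6 (1129 and 1108) and D30 organoid 4 (2797) lay within their ranges. No relation between these sums and the 38 genes was tested.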
